A study of Arabidopsis thaliana with 6 samples.

Results

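Anthocyanins are the purple flavonoid pigments of plants, and 5 enzyme genes that build or decorate them are described here in light-grown and in dark-grown Arabidopsis thaliana seedlings. The genes are DFR (AT5G42800), UGT78D2 (AT5G17050), AT5MAT (AT3G29590), AT4G14090 and AT1G03940, and they were taken as the anthocyanin and flavonoid enzymes that carry a named feature, out of 7234 genes with one. Each of the 5 is represented by 1 feature on the array. Their ratios on all 6 arrays were known when they were picked, so these ratios are given as a description, and nothing is read from tests of them.

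The study measured total RNA of whole seedlings on 6 two-colour arrays. In 3 of them the sample was Col-0 wild type grown for 60 h in continuous red light of 24 μmol m-2 s-1, and in the other 3 it was the pifQ mutant grown for 60 h in darkness. The sample was labelled with Cy5, and RNA of dark-grown Col-0, labelled with Cy3, was the reference on every array, without a dye swap. Each value is thus a ratio over dark-grown Col-0 on a log2 scale, and a value of 1 stands for 2 times the dark level. All groups had 1% sucrose in the medium and, before the 60 h, 3 days of cold darkness and a white light treatment of 6 h, the dark-grown controls included. The pifQ mutant lacks PIF1, PIF3, PIF4 and PIF5, phytochrome-interacting factors. These are transcription factors that hold a seedling in its dark-grown form until phytochrome, the red light receptor, is activated. Replicates were separate biological samples per the labels, and errors are the SD of the 3 replicate arrays unless an SE is named. The base of the logarithm was taken as 2 from the range of the values, and the fold sizes rest on it.

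In the flavonoid pathway, phenylalanine is turned into chalcones, then dihydroflavonols, and from there the pathway divides into colourless flavonols and coloured anthocyanidins. DFR, dihydroflavonol reductase, takes the step that commits a dihydroflavonol to the anthocyanidin side. Glycosyltransferases then attach sugars, which make the pigment stable and soluble, and acyltransferases attach malonyl or coumaroyl groups to those sugars before the pigment collects in the vacuole. In seedlings, anthocyanin colour is a familiar response to light.

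All 5 genes were far higher in Col-0 under red light than in Col-0 in darkness, between 5.30-fold and 20.2-fold. In dark-grown pifQ their mean ratios over dark Col-0 ran from log2 -0.56 (DFR) to 0.22 (UGT78D2). The median of the 5 means was log2 2.59 in red light and -0.26 in pifQ, beside medians of -0.02 and -0.04 over all 7234 genes. The lowest red light array stood above the highest pifQ array for every one of the 5, as it did for 13.2% of all genes. In whole seedlings, more cells that express a gene and more RNA per cell cannot be told apart.

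DFR had log2 ratios of 4.56, 4.00 and 4.45 on red light replicates 1, 2 and 3, and of -0.29, -0.09 and -1.29 on pifQ replicates 1, 2 and 3. All red light arrays were high and all pifQ arrays were below 0, with a gap of 4.09 between the groups. The means were 4.34 ± 0.30 in red light (20.2-fold) and -0.56 ± 0.64 in pifQ (n = 3 each), so that DFR was 29.8-fold higher in red light Col-0 than in pifQ. Of all 7234 genes, DFR ranked 4 by its red light mean and 1 by the difference between red light and pifQ. Counted from the highest in the same way, it ranked 6858 by its pifQ mean, toward the low end.

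Of the enzymes that add sugars, UGT78D2 transfers glucose to flavonols and anthocyanidins. Its ratios were 2.44, 2.42 and 2.37 on the red light arrays and 0.23, 0.61 and -0.16 on the pifQ arrays. The red light arrays were nearly alike and the pifQ arrays fell on both sides of 0, with no overlap between the groups. The red light mean was 2.41 ± 0.04 (5.30-fold) and the pifQ mean 0.22 ± 0.39, the only one of the 5 pifQ means above 0. AT4G14090, the other glucosyltransferase gene, stood at 2.77, 2.37 and 2.62 in red light and at -0.58, 0.41 and -0.60 in pifQ. Here too the groups were apart, and pifQ replicate 2 alone was above 0. Its means were 2.59 ± 0.20 (6.01-fold) and -0.26 ± 0.58.

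The genes of the acylating enzymes behaved in a like manner. AT5MAT, which adds malonyl groups to anthocyanins, had red light ratios of 2.82, 2.70 and 3.22 and pifQ ratios of 0.11, -0.20 and -1.0. The highest value was on red light replicate 3 and the lowest on pifQ replicate 3, and the means were 2.91 ± 0.28 (7.54-fold) and -0.37 ± 0.57. AT1G03940, an acyltransferase gene of the pathway, gave 2.74, 2.15 and 2.55 in red light and 0.04, 0.11 and -0.88 in pifQ. On pifQ replicates 1 and 2 it was within 0.11 of the dark Col-0 value, and replicate 3 stood lower. Its means were 2.48 ± 0.30 (5.57-fold) and -0.25 ± 0.55. Between red light Col-0 and pifQ, the difference was 9.71-fold for AT5MAT, 7.17-fold for AT4G14090, 6.60-fold for AT1G03940 and 4.54-fold for UGT78D2. Probe sequences were not used here, and whether close relatives of these genes bind to the same features was not tested.

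**Figure D1:**
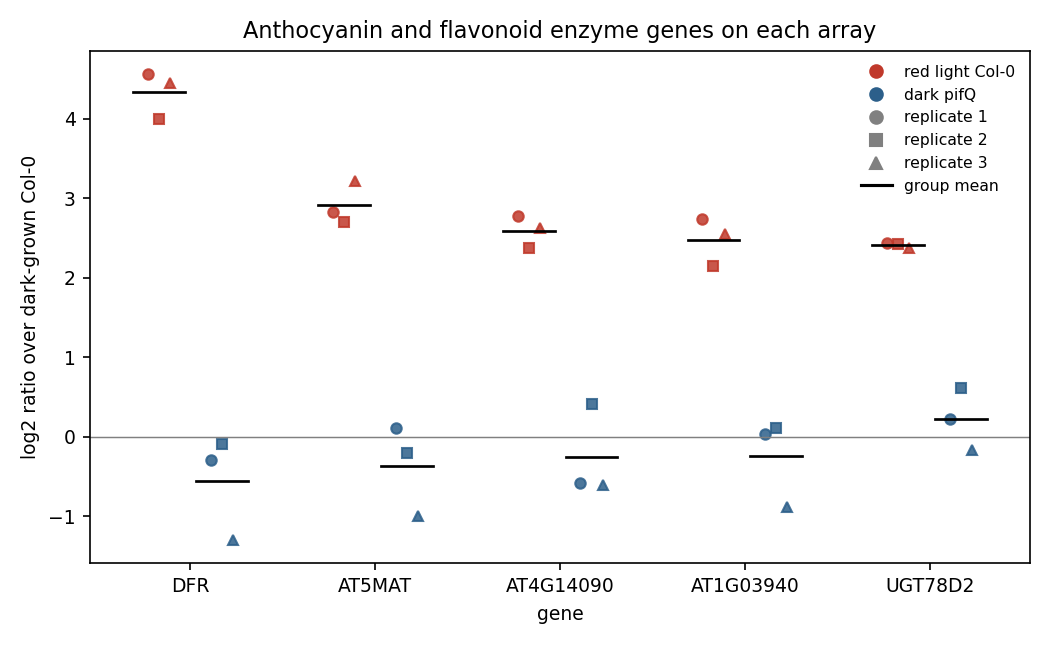
Log2 ratio over dark-grown Col-0 (vertical axis) of the 5 enzyme genes (horizontal axis, ordered by red light mean) on each of the 6 arrays. Points are arrays, coloured by group and shaped by replicate, and black bars are group means: red light points lie between 2.15 and 4.56, pifQ points between -1.29 and 0.61.

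Counted by the limma fit over all genes, all 5 were called higher in red light Col-0 than in dark Col-0, where 18.8% of the 7234 genes were called higher at an adjusted p under 0.05. Likewise all 5 were called higher in red light Col-0 than in dark pifQ, where 2.2% of genes were. In pifQ against dark Col-0 the fit called 0 of the 5 (1, DFR, was lower at an unadjusted p under 0.05), where 4.59% of genes were called higher and 7.04% lower, and centring the arrays on their medians turned that background from 332 higher and 509 lower into 411 and 364. Because the genes were picked with these values known, nothing is read from these counts. Ratios were tested against 0, so any spread among dark Col-0 seedlings enters only where arrays had different reference samples. The labels do not say how many dark Col-0 samples served as reference. Both comparisons against dark Col-0 rest on dark Col-0 reference RNA.

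Within red light, DFR exceeded the next gene, AT5MAT, by log2 1.42 ± 0.28, and did so on 3 of 3 arrays. AT5MAT exceeded AT4G14090 by 0.33 ± 0.28, from 0.05 to 0.60 on single arrays. AT4G14090 exceeded AT1G03940 by 0.11 ± 0.10, and AT1G03940 exceeded UGT78D2 by 0.07 ± 0.30, with UGT78D2 the higher one on red light replicate 2. DFR therefore led the order by more than the spread between arrays, while AT4G14090, AT1G03940 and UGT78D2 did not separate clearly. These are changes relative to dark Col-0 and say nothing of which transcript was the more abundant. In pifQ, UGT78D2 was above each of the other genes on 3 of 3 arrays, by 0.47 ± 0.26 over AT1G03940 and by 0.78 ± 0.31 over DFR. AT1G03940 was also above DFR on 3 of 3 arrays, by 0.31 ± 0.11. In the other 5 pairs the mean difference was smaller than its SD, as for AT5MAT over DFR (0.19 ± 0.27).

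Among the arrays, pifQ replicate 3 gave the lowest pifQ ratio for all 5 genes. Their median was 0.04, 0.11 and -0.88 on pifQ replicates 1, 2 and 3, and replicate 3 lay below the mean of the other two by a median of log2 -0.95. Over all 7234 genes that median difference was 0.03, and 32.3% of genes had their lowest pifQ value on replicate 3. This array also resembled the red light arrays across genes (r = 0.695, 0.593 and 0.601 with red light replicates 1, 2 and 3) more than it did pifQ replicates 1 and 2 (r = 0.506 and 0.423). Those 2 arrays had r = 0.615 with each other and r from 0.453 to 0.591 with the red light arrays. Each of them was thus also closer to every red light array than to pifQ replicate 3. Without pifQ replicate 3 the pifQ means were -0.19 for DFR, -0.05 for AT5MAT, -0.08 for AT4G14090, 0.07 for AT1G03940 and 0.42 for UGT78D2. The values of DFR, AT5MAT and AT4G14090 thus moved toward 0 and that of AT1G03940 changed sign. In the red light group, 4 of the 5 genes had their lowest value on replicate 2.

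Most genes with a comparable rise in red light were also raised in the dark-grown mutant. Besides the 5 enzyme genes, 74 genes had a red light mean of at least log2 2, a limit set after the values were seen. Their median was 2.48 in red light against 1.08 in pifQ. Both ratios are taken over dark Col-0, so these medians are not independent. In the mutant, 52 of the 74 were called higher by limma with Benjamini-Hochberg adjustment, or 20 and 24 without pifQ replicate 1 or 2. A pifQ mean at or below 0.22, that of UGT78D2, was seen in 7 of the 74, and 3 had one below 0. Of these 74 genes, 68.9% also had their lowest pifQ value on replicate 3, and their median difference between replicate 3 and the mean of the other two was log2 -0.52.

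**Figure D2:**
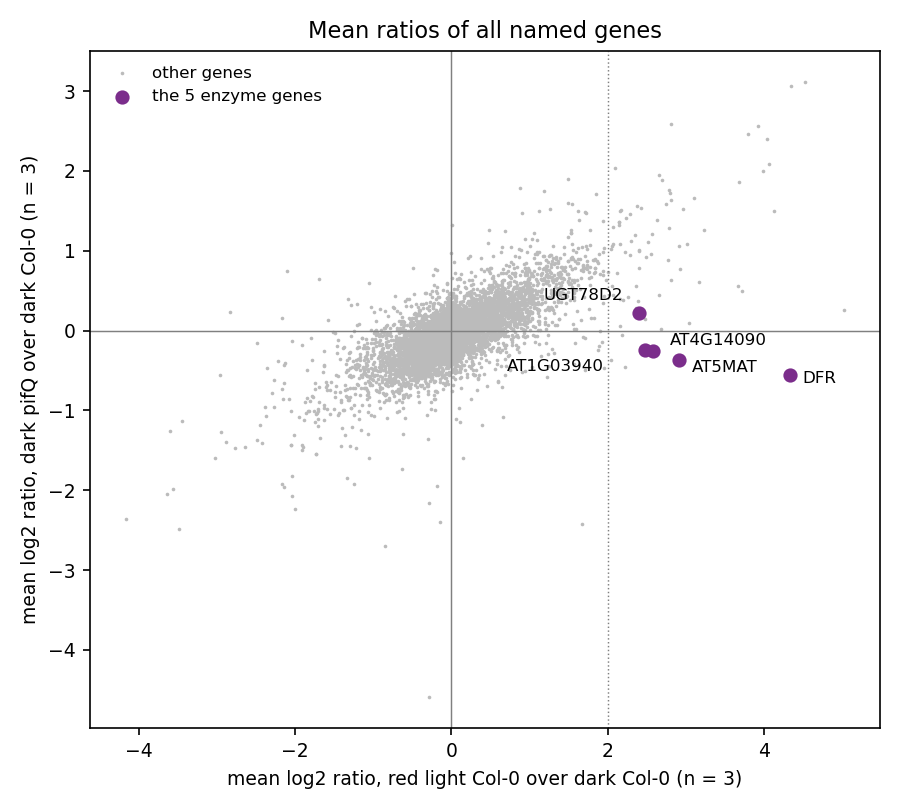
Mean log2 ratio in red light Col-0 (horizontal axis) and in dark pifQ (vertical axis), each over dark-grown Col-0 (n = 3), for all 7234 named genes, with the 5 enzyme genes in purple and a dotted line at a red light mean of 2. DFR lies far right at 4.34 and -0.56, and the other 4 enzyme genes lie near the horizontal zero line while most grey points at the right lie above it.

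The genes whose 6 ratios came closest to the mean profile of the 5, by Euclidean distance on the log2 scale, were AT5G42760 (distance 1.05), the thionin gene THI2.2 (1.16), AT1G32520 (1.25) and PIF7 (1.46). They were followed by AT3G56290 (1.46), AT4G12830 (1.70), AT4G04750 (1.73) and AT4G16880 (1.75). For comparison, the 5 genes themselves lay between 0.57 (AT5MAT) and 2.49 (DFR) from their own mean. AT5G42760 gave 3.12, 3.15 and 2.85 in red light and 0.05, 0.08 and 0.13 in pifQ, so its pifQ arrays were nearly alike where those of DFR were not. On chromosome 5 it is separated from DFR by 6 protein-coding genes in the TAIR10.1 annotation. THI2.2, which encodes a small antimicrobial peptide, stood at 2.78, 2.48 and 2.79 in red light and at 0.09, -0.23 and 0.19 in pifQ. AT3G56290 was the nearest gene whose pifQ ratios were all below 0, at -0.08, -0.36 and -0.93, with 2.12, 2.44 and 2.11 in red light.

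Taken singly, AT4G14090 and AT1G03940 were each other's nearest gene (distance 0.78), and the nearest gene to AT5MAT was AT1G03940 (0.94). UGT78D2 was closest to AT4G12830 (0.53) and AT1G32520 (0.56), and DFR had no close neighbour, AT3G28220 and AT3G28270 being 2.26 and 2.30 away. AT3G28220 had the red light ratios 5.03, 5.29 and 4.75 and the pifQ ratios -0.14, 0.60 and 0.33. All 6 arrays carry a dark Col-0 reference, so these likenesses are not between independent measurements.

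**Figure D3:**
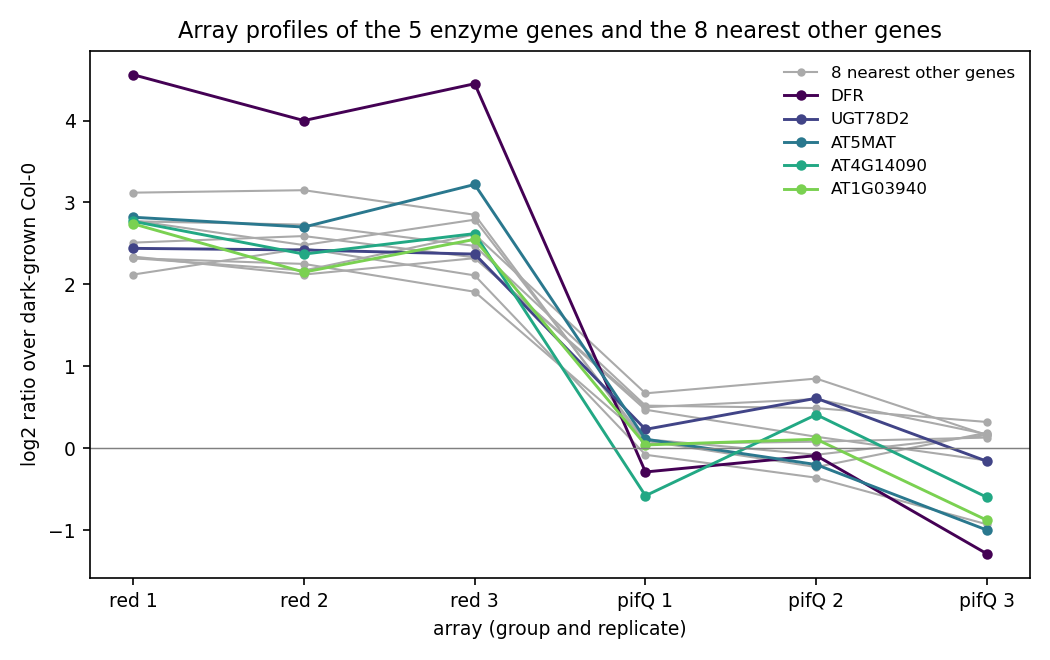
Log2 ratio over dark-grown Col-0 (vertical axis) on the 6 arrays (horizontal axis) for the 5 enzyme genes (coloured) and the 8 other genes nearest to their mean profile (grey); lines only join the points of a gene. All profiles step down from red light to pifQ, and the 5 enzyme genes have their lowest values, down to -1.29, on pifQ replicate 3.

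Further genes came from 12 lists with 150 genes besides the 5, of which 16 had a named feature. The lists cover the pathway, its regulators and neighbouring branches, and also light signalling regulators, root markers and seed storage markers. No gene of the general phenylpropanoid or the early flavonoid list (chalcone synthase, flavonol synthase and others) had a named feature. Of the late anthocyanin list, only DFR had one. Below, measured means having a named feature, and the genes behind the 37780 unnamed features were not identified. At an adjusted p under 0.05, 5 of the 16 rose and 2 fell in red light against dark Col-0, beside 18.8% and 19% of all genes. In pifQ 3 rose and 0 fell, beside 4.59% and 7.04% of all genes. Against pifQ, 3 were higher and 0 lower in red light, beside 2.2% and 1.16% of all genes. At an unadjusted p under 0.05, limma put 1 of the 16 lower in pifQ and 2 lower in red light than in pifQ. Without pifQ replicate 2 or 3, 1 gene was called higher in pifQ, without any array but pifQ replicate 3, 1 was called higher in red light than in pifQ, and without each red light array 1 was called lower in red light. The 16 genes had a median log2 of -0.02 in red light and of 0.04 in pifQ, near the medians of all genes.

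Among 7 further flavonoid and phenolic glycosyltransferase genes, 3 rose in red light, none of them as far as UGT78D2 or AT4G14090. Among them are relatives of UGT78D2 that act on flavonols. UGT78D1, which attaches rhamnose, had ratios from 0.78 to 1.2 on the red light arrays and of 0.27, 0.93 and 1.05 on the pifQ arrays, so that the groups overlapped. By limma it rose in both, with means of 0.96 ± 0.21 (adjusted p = 0.00239) and 0.75 ± 0.42 (adjusted p = 0.0243), and red light minus pifQ was 0.21 (95% interval from -0.32 to 0.74, adjusted p = 0.674). Its pifQ call ended without pifQ replicate 2 or 3 and under 3 further settings, at adjusted p = 0.0544 to 0.117. UGT78D3, which attaches arabinose, and AT5G17040 lie beside UGT78D2 on chromosome 5, with 1 and 0 protein-coding genes between. UGT78D3 stayed between -0.13 and 0.01 on all 6 arrays, with a red light mean of -0.08 ± 0.05 (adjusted p = 0.612) and a pifQ mean of -0.04 ± 0.08. AT5G17040 had ratios of 0.17, -0.07 and 0.72 in red light and of 0.32, 0.16 and -0.34 in pifQ, overlapping and not called (adjusted p = 0.263 and 0.892).

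AT1G06000 was the gene among these 7 with both a gap between red light and pifQ arrays and a call between the groups. It gave 1.04, 1.19 and 1.43 in red light and 0.32, 0.11 and 0.40 in pifQ. Its red light mean was 1.22 ± 0.20 (adjusted p = 0.00017), its pifQ mean 0.28 ± 0.15 (adjusted p = 0.173), and the difference log2 0.95 (SE 0.17, adjusted p = 0.0228). That last call ended without any array but pifQ replicate 3 and under scaling, quantile normalization and the replicate block, at adjusted p = 0.069 to 0.278. UGT84A3, which glucosylates hydroxycinnamic acids such as sinapate, rose in red light (0.58 ± 0.24, adjusted p = 0.0344) and had a pifQ mean of -0.37 ± 0.49 (adjusted p = 0.218). Its call ended without each red light array in turn, and with scaled or quantile-normalized arrays, at adjusted p = 0.0502 to 0.2. The flavonol glycosyltransferase gene UGT79B6 (AT5G54010) had means of -0.20 ± 0.09 and 0.05 ± 0.38 and was not called, except in red light with array weights (limma adjusted p = 0.0291).

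Of the acyltransferase and methyltransferase list, only AT5G39080 and AT5G39090 were measured besides AT5MAT and AT1G03940. AT5G39080 had a red light mean of -0.27 ± 0.34 and a pifQ mean of 0.35 ± 0.27 (adjusted p = 0.203 and 0.176), and AT5G39090 had -0.06 ± 0.08 and -0.00 ± 0.24. Neither was called in any comparison.

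Of 3 measured genes of the lignin and sinapate branch, which draws on the same precursors, 2 fell in red light. HCT, the acyltransferase that leads coumaroyl-CoA into lignin precursors, fell, with ratios of -0.69, -0.61 and -0.62 (mean -0.64 ± 0.05, adjusted p = 0.00359). In pifQ it stood at -0.14, -0.04 and -0.49 (adjusted p = 0.255), and red light minus pifQ was not called (-0.42, limma adjusted p = 0.232). ALDH2C4, the dehydrogenase that makes ferulic and sinapic acid, fell as well (-0.45 ± 0.07, adjusted p = 0.0176), a call that ended without each red light array in turn, at adjusted p = 0.0689 to 0.0911. The pifQ mean of ALDH2C4 was -0.25 ± 0.22 (adjusted p = 0.198), and red light minus pifQ was -0.19 (limma adjusted p = 0.591). CCR2, a cinnamoyl-CoA reductase gene, had means of 0.21 ± 0.07 in red light and -0.29 ± 0.20 in pifQ (adjusted p = 0.179 and 0.137), and was called in red light with array weights alone (adjusted p = 0.0434). AT1G22410, the 1 measured gene of the list on precursor supply, stood at 0.03 ± 0.13 and -0.03 ± 0.33.

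Of 32 listed regulators of the flavonoid pathway only ATMYC1 had a named feature, a bHLH gene related to the partners of the anthocyanin MYB factors. Its ratios were 1.56, 1.53 and 1.33 in red light and 0.81, 0.60 and 0.71 in pifQ, so that, unlike the 5 enzyme genes, all 6 arrays were well above 0. By limma it rose in red light (1.47 ± 0.12, adjusted p = 4.13e-05) and in pifQ (0.71 ± 0.11, adjusted p = 0.00711). Red light was above pifQ by 0.77 (SE 0.15, adjusted p = 0.0329). That call ended under 8 of 14 alternatives, at adjusted p = 0.0645 to 0.59. These were leaving out any array but pifQ replicate 3, scaling, quantile normalization and the replicate block. PIF7, a PIF that the mutant retains and the 1 measured gene of 27 light signalling regulators, had ratios of 2.77, 2.73 and 2.47 in red light and of 0.52, 0.49 and 0.32 in pifQ. Red light exceeded pifQ by 2.22 (SE 0.16, adjusted p = 0.000271), while its pifQ mean of 0.44 ± 0.11 (adjusted p = 0.0392) lost its call without any 1 of the 6 arrays and under 4 further settings, at adjusted p = 0.0516 to 0.152. None of the PIF genes mutated in pifQ has a named feature, so the transcripts could not serve as a check of the genotype. Root marker EXPA18, measured as 1 of 4, had means of -0.21 ± 0.41 and 0.23 ± 0.13 and was called in red light with array weights alone (limma adjusted p = 0.0184), and no seed storage marker was measured.

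**Figure D4:**
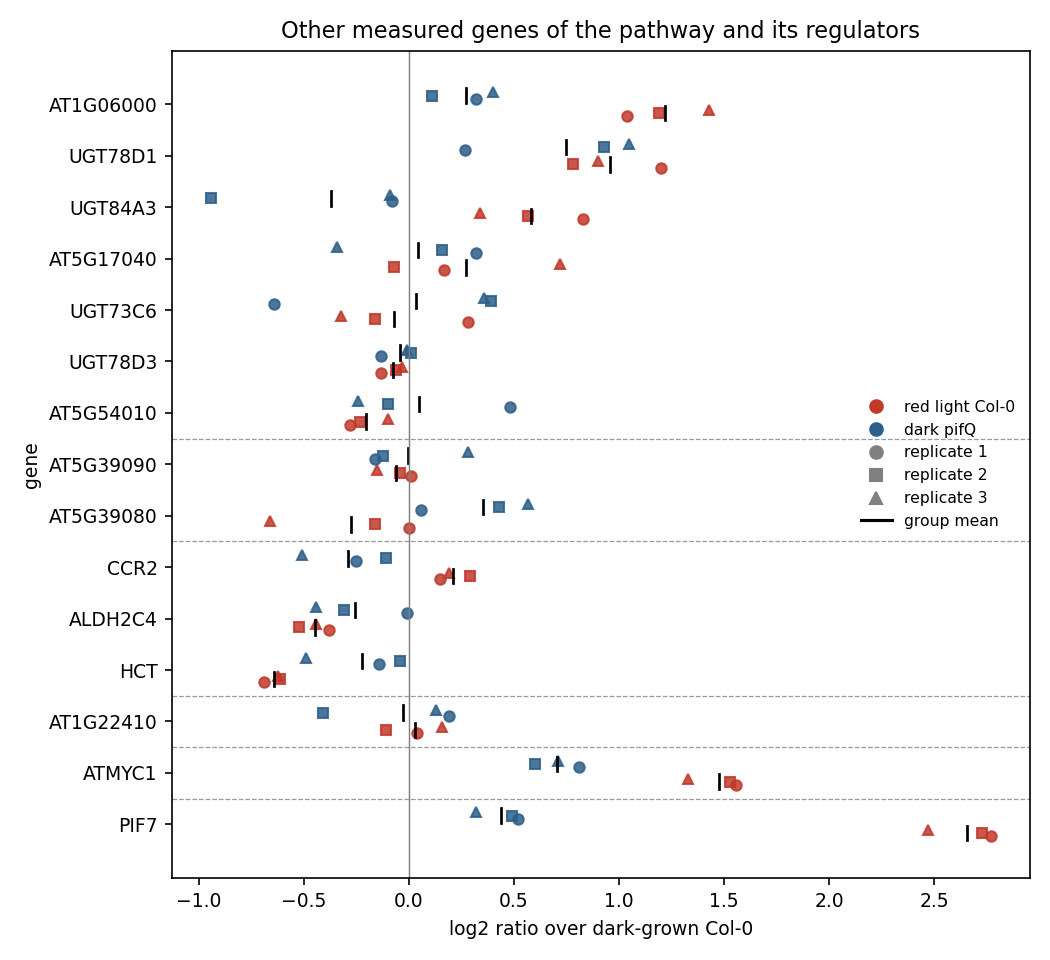
Log2 ratio over dark-grown Col-0 (horizontal axis) on each array for 15 measured genes of the wider lists (vertical axis), grouped by dashed lines from the top into glycosyltransferases, acyltransferases, lignin and sinapate branch, precursor supply, flavonoid regulator and light signalling regulator. Black ticks are group means (n = 3): only PIF7 reaches the red light range of the 5 enzyme genes, at 2.66.

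In the wider glycosyltransferase family, UGT78D2 and AT4G14090 stood above all other measured genes in red light. Of 39 other genes annotated as UDP-glycosyltransferases, 5 of them also in the lists above, 9 rose and 11 fell in red light (23.1% and 28.2%), with a median of -0.01 and a range from -1.16 to 1.31. These counts dropped to 5 and 6 without red light replicate 1, and to 7 and 6 without replicate 2. Of all genes, 18.8% were called higher and 19% lower in red light. UGT88A1 (1.31 ± 0.22), UGT74D1 (1.17 ± 0.19) and UGT71B1 (1.0 ± 0.10) rose the most by limma, at adjusted p = 0.00282, 0.000321 and 0.00101. UGT74D1 is known to glucosylate auxins. The auxin glucosyltransferase gene IAGLU (-1.17 ± 0.10), UGT76B1 (-1.0 ± 0.10) and UGT72E3 (-0.98 ± 0.22), whose enzyme glucosylates lignin precursors, fell the most, at adjusted p = 0.00122, 0.0005 and 0.000525.

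In pifQ 4 of the 39 rose and 5 fell (10.3% and 12.8%), beside 4.59% and 7.04% of all genes. UGT88A1 (0.91 ± 0.72, adjusted p = 0.0387), UGT71B1 (0.75 ± 0.36, adjusted p = 0.0149) and UGT78D1 had the largest increases. IAGLU (-0.80 ± 0.51, adjusted p = 0.0237), UGT87A2 (-0.66 ± 0.10, adjusted p = 0.00823) and the sterol glucosyltransferase gene SGT (-0.58 ± 0.12, adjusted p = 0.0255) had the largest decreases. Each of these 6 pifQ calls ended under at least 1 alternative, at adjusted p between 0.0517 and 0.197, and without pifQ replicate 1 or 2 at most 1 of the 39 was called in either direction. Between red light and pifQ limma called 2.2% of all genes higher and 1.16% lower. Of the 39 it called 0 higher (6 at an unadjusted p under 0.05) and 1 lower, or 4 lower without pifQ replicate 3. The 1 gene was UGT72E3 (-0.97, SE 0.17, adjusted p = 0.0223), a call that ended under 6 of 14 alternatives at adjusted p = 0.0543 to 0.118.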

How the data were processed

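The authors deposited log ratios for 45220 features on 6 arrays. They were taken as log2 of sample (Cy5) over dark-grown Col-0 (Cy3), a direction given by titles and dyes per the labels. Limma is named per the submitters' processing notes; the background correction, normalization and filters used are not stated there or per the labels. Base 2 was inferred from the range (-5.63 to 7.85). Array medians lay within -0.005 and 0. No intensities were used, so dim and saturated spots are not known. Precision is limited by 3 arrays per group.

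Of the features, 7440 carry 1 gene name, 0 several and 37780 none here. All 7440 matched TAIR10.1 loci, and features of a gene were averaged (7234 genes, 139 with several features). Genes were fitted with limma 3.58.1 in R 4.3.3 (lmFit, eBayes; 1 coefficient per group over 6 arrays), with two-sided p-values adjusted over all 7234 genes (Benjamini-Hochberg) and called under 0.05. The script was tested on simulated data. The 5 genes, the lists and the tests were chosen with earlier results of these data known.

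By rule, the text names up to 6 measured genes per list, up to 3 glycosyltransferase genes per direction and comparison (symbol or synonym in the annotation), the 8 genes nearest to the mean profile and the 2 nearest to each of the 5. The rule's acyltransferase family could not be looked up, because the annotation used holds symbols and synonyms but no product descriptions. Its 0 matches therefore say nothing about how many such genes were measured. Promoter motifs were not analysed here. Alternatives were median centring, scaling, quantile normalization, unaveraged features, leaving out the 25% of genes nearest 0, a robust prior, array weights, the spread of each group alone, a replicate block and leaving out each array.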

Additional observations from a re-analysis of the deposited data

How the results depend on the processing

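All 5 enzyme genes kept the sign of their red light ratio and of their difference between red light and pifQ under every alternative run. Scaling the arrays to the same spread gave red light log2 ratios of 3.90 for DFR, 2.15 for UGT78D2, 2.63 for AT5MAT and 2.33 for AT4G14090, and a red light minus pifQ difference of 1.91 for UGT78D2. Quantile normalization gave red light ratios of 3.585 for DFR, 1.94 for UGT78D2, 2.395 for AT5MAT, 2.12 for AT4G14090 and 2.01 for AT1G03940, and differences of 4.20 for DFR, 1.62 for UGT78D2, 2.80 for AT5MAT and 2.39 for AT4G14090. In pifQ, leaving out 1 array moved DFR between -0.79 and -0.19, AT5MAT between -0.60 and -0.05, AT4G14090 between -0.59 and -0.08, AT1G03940 between -0.42 and 0.07 and UGT78D2 between 0.03 and 0.42.

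Counts of calls moved more. With array weights, 2161 genes were called higher and 2347 lower in red light against dark Col-0, 393 and 246 in red light against pifQ, 4 genes of the wider lists were lower in red light and 1 higher in pifQ. Scaling gave 72 higher and 18 lower in red light against pifQ, where the main counts were 159 and 84, with 1 gene of the wider lists higher. Quantile normalization gave 55 and 19 there, with 1 gene of the wider lists higher, and 587 higher in pifQ against dark Col-0, where the main counts were 332 and 509. Taking the spread from pifQ arrays only, 217 and 226 genes were called in pifQ, 1 of them from the wider lists. Leaving out 1 array moved the red light counts between 781 and 1524 higher and between 651 and 1477 lower, the pifQ counts between 94 and 366 higher and between 136 and 472 lower, and those of red light against pifQ between 45 and 364 higher and between 16 and 199 lower. Of the wider lists, 1 to 2 genes were then lower in red light, 1 to 2 higher in pifQ and 1 to 3 higher in red light than in pifQ. Same-numbered arrays of the groups did not deviate together (r = -0.176, -0.148 and -0.167). With 3 arrays per group, this cannot settle whether the numbers pair the samples. With the replicate block, 227 genes were called lower in pifQ, 92 higher and 28 lower in red light against pifQ, and 1 gene of the wider lists was higher in each. The cause of these shifts was not tested. Of the 23 tested genes named in the text, 4 of 15 calls in red light, 8 of 9 in pifQ and 3 of 4 between red light and pifQ ended under some alternative, and none changed sign. Calls were gained for 3 genes in red light (AT5G54010, CCR2 and EXPA18, all with array weights) and for 3 between red light and pifQ (UGT84A3, UGT76B1 and IAGLU), 0 in pifQ.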
